A study of Mus musculus with 2 samples.

Results

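The glutathione transferases, aldehyde dehydrogenases and aldo-keto reductases were followed in KPR- and KPR_restored mouse lung cancer cells. The members were taken by symbol from the deposited FPKM values, as the cytosolic and mitochondrial Gst genes of the alpha, kappa, mu, omega, pi, theta and zeta classes, the microsomal Mgst genes, the Aldh genes other than Aldh1l1, Aldh1l2 and Aldh18a1, and the Akr genes, without pseudogenes. This gave 59 of the 23183 listed genes, namely 24 glutathione transferases, 18 aldehyde dehydrogenases and 17 aldo-keto reductases. Of these, 37 reached an FPKM of 1 as the mean of both libraries and are called expressed here. The member closest above this limit was Aldh6a1 (mean FPKM 1.26) and the one closest below it was Aldh5a1 (0.876). That is 62.7% of the members, compared with 48.4% of all listed genes (11231 genes).

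FPKM is the number of sequenced fragments per kilobase of transcript, scaled to the depth of the library, so levels of different genes can be set side by side. KPR- is an immortalized cell line from the lung cancers of KPR L/F-TAM(-) mice, which carried Rosa26R-Tomato and Flp ERT2 together with Runx3 flox/FSF, K-Ras LSL-G12D/+ and p53 flox/flox. In both groups, infection with Ad-Cre, an adenovirus carrying Cre recombinase, had activated K-Ras and deleted p53 and the floxed Runx3 allele. The remaining Runx3 FSF allele is blocked by a Frt-Stop-Frt cassette until 4-OHT, an active form of tamoxifen, turns on the Flp ERT2 recombinase. The KPR- library is labelled RUNX3 -/- at 0 h, and the KPR_restored library is labelled RUNX3 -/+ at 16 h. Both labels list 1 μM 4-OHT, whereas in the study the 4-OHT is what turns KPR- into KPR_restored cells. No library of cells that received 4-OHT without Runx3 restoration was analysed here, so effects of Runx3, of 4-OHT and of the hours in culture cannot be told apart. How many tumours or clones gave rise to the cell line is not given in the sources used here.

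Each group had 1 library, so no difference below has a replicate check, no p-value was computed, and "higher" or "lower" always compares 1 library with another. The FPKM totals were 521340 in KPR- and 523647 in KPR_restored. Low FPKM values fell on the steps that whole fragments make, which placed the depth at about 21.7 M fragments in KPR- and 22.4 M in KPR_restored. Runx3, the gene that the labels are about, had an FPKM of 0.348 in KPR- and 0.349 in KPR_restored, from about 28 and 29 fragments (interval of the log2 difference -0.80 to 0.81, from counting error only). A value per gene does not separate transcripts of the restored allele from other Runx3 transcripts, so it does not check the labels, and directions below are those of the library labelled KPR_restored. All 8 epithelial marker genes were expressed in both libraries, with summed FPKM of 6303 and 5653. Of the markers of alveolar type 2 cells, Sftpc, Sftpb, Sftpa1 and Lamp3 were listed at 0 in both, and so was the club cell marker Scgb1a1. Of the 7 alveolar type 2 markers 1 was expressed (Abca3, at FPKM of 18.2 and 14.6). Of 7 fibroblast markers 1 was expressed (Col1a1), with summed FPKM over the list of 12.7 and 5.35. Of 6 immune markers 1 was expressed (Cd68), with summed FPKM of 3.08 and 6.79. Lyz2, Cd3e and Adgre1 were listed at 0 in both libraries. Of 3 ciliated cell markers 2 were expressed, Tubb4b (480.3 in KPR- and 488 in KPR_restored) and Foxj1 (2.78 and 0.656). Of 4 endothelial markers 1 was expressed (Kdr, at 1.10 and 2.05), and of 3 red blood cell markers 0 were.

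Glutathione transferases join the tripeptide glutathione to electrophiles such as lipid peroxidation products, and the conjugates are then exported from the cell. Aldehyde dehydrogenases oxidize aldehydes to carboxylic acids, among them acetaldehyde and the retinaldehyde from which retinoic acid is made, and aldo-keto reductases reduce aldehydes and ketones, including sugars and steroids, to alcohols. Many of these genes are known targets of the transcription factor NRF2, and several are known for high levels in lung tumours.

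The members were more often higher than lower in KPR_restored. For every gene, log2(FPKM + 0.005) of KPR- was subtracted from that of KPR_restored, and a gene was counted as higher or lower at 0.5 or more in either direction. Of the 37 expressed members, 12 were higher (32.4%), where 12.1% of all expressed genes were. Only 1 member, Mgst3, was lower (2.70%), where 9.29% of all expressed genes were. At a difference of 1 or more, 4 members were higher (10.8%) and 0 were lower, compared with 2.89% and 1.38% of all expressed genes. Akr1c18, with FPKM of 0.521 in KPR- and 3.70 in KPR_restored, is among both the 12 and the 4. It counts as expressed only through its KPR_restored level. The median difference of the expressed members was 0.289, and that of all expressed genes was 0.009. In all, 26 of the 37 members lay above 0 (70.3%), compared with 51.0% of expressed genes. In these bulk libraries a change in the share of cells that express a gene and a change in RNA per cell cannot be told apart.

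**Figure D1:**
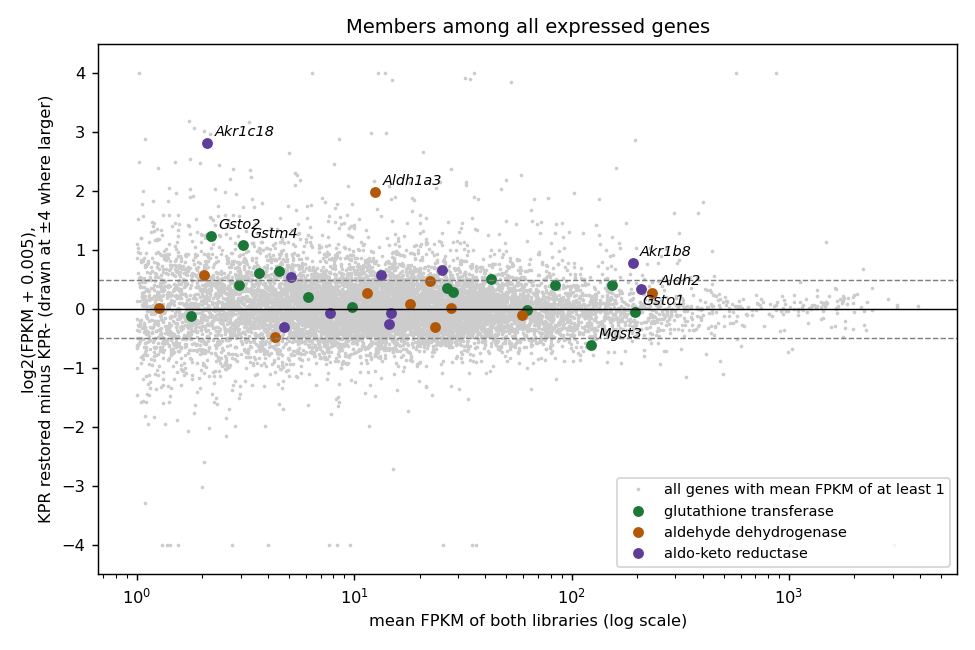
Difference in log2(FPKM + 0.005), KPR_restored minus KPR-, against the mean FPKM of both libraries (log scale) for all 11231 expressed genes (grey) and the 37 expressed members (coloured by family). Dashed lines mark differences of 0.5 and -0.5, genes beyond 4 either way are drawn at that value, and Mgst3 is the single member under the lower line while 12 members lie over the upper line.

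The families differed in these counts. Of 16 expressed glutathione transferases 5 were higher and 1 was lower, with a median difference of 0.376. Of 11 expressed aldehyde dehydrogenases 2 were higher and 0 were lower, with a median of 0.090. Of 10 expressed aldo-keto reductases 5 were higher and 0 were lower, with a median of 0.444. These 5 include Akr1c18. Whether the families differ from each other was not tested. Summed over all listed members, the glutathione transferases stood at an FPKM of 729.7 in KPR- and 775 in KPR_restored, a ratio of 1.06. The aldehyde dehydrogenases summed to 388 and 451, a ratio of 1.16. The aldo-keto reductases summed to 404 and 569.8, a ratio of 1.41. The summed level of the aldo-keto reductases therefore differed by the widest ratio of the 3 families.

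**Figure D2:**
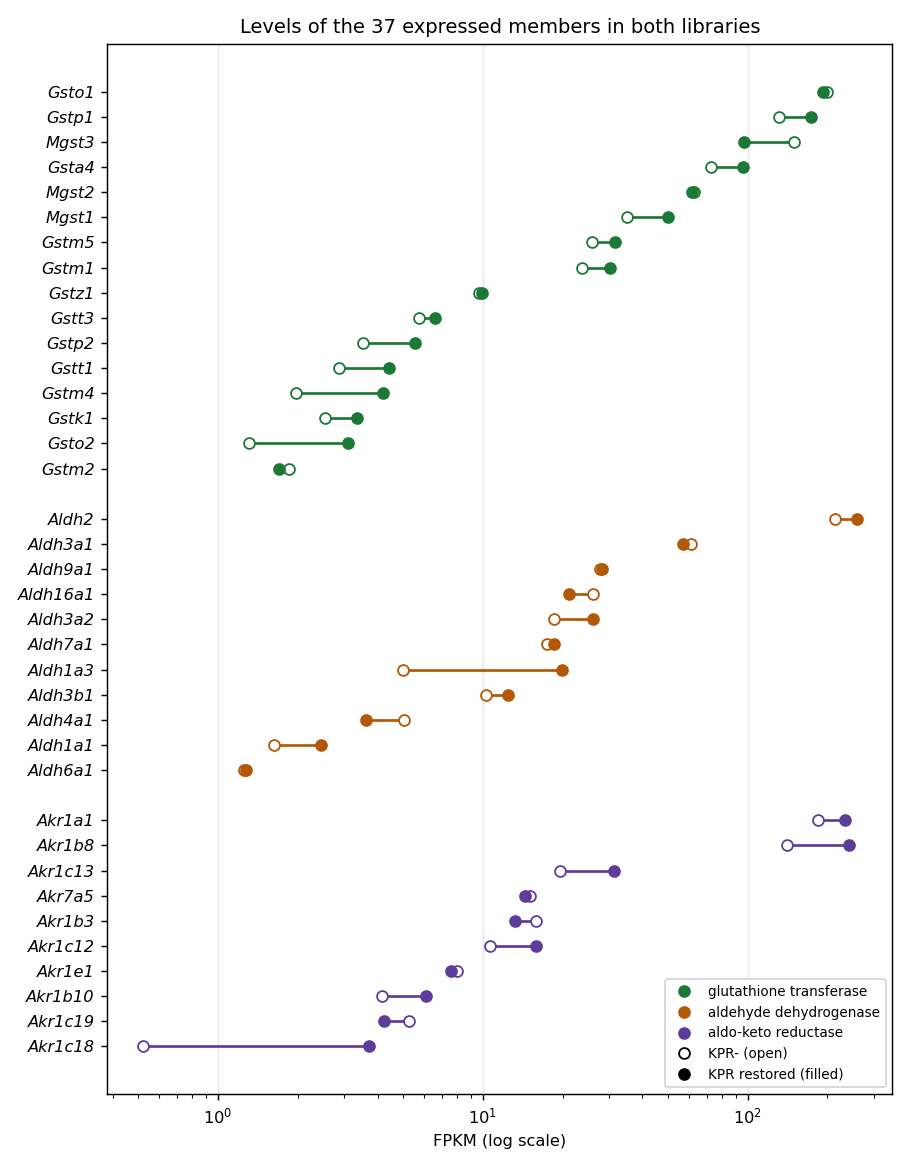
FPKM (log scale) of the 37 expressed members in KPR- (open points) and KPR_restored (filled points), ordered within each family by mean level and with a line joining the values of a gene. Levels run from about 0.521 for Akr1c18 in KPR- to 258 for Aldh2 in KPR_restored, and the longest lines are those of Akr1c18 and Aldh1a3.

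The abundant members were few, and 1 or 2 of them made up much of each family's sum. A mean FPKM of 100 or more was reached by 6 members, 16 lay between 10 and 100, and 15 lay between 1 and 10. Aldh2, the mitochondrial enzyme that oxidizes acetaldehyde, had the highest mean level of the members, with FPKM of 213 in KPR- and 258 in KPR_restored. It made up 54.8% and 57.2% of the aldehyde dehydrogenase sum. Akr1a1, an aldehyde reductase, and Akr1b8, an aldose reductase-like enzyme, exchanged places within their family. Akr1a1 gave 45.5% of the aldo-keto reductase sum in KPR- and 40.7% in KPR_restored, while Akr1b8 gave 34.9% and 42.4%. Among the glutathione transferases, Gsto1 stood first in both libraries with 27.3% and 24.8% of the sum. The next place was held by Mgst3 in KPR- (20.4% of the sum there and 12.5% in KPR_restored) and by Gstp1 in KPR_restored (18.0% in KPR- and 22.5% there).

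The precision of each difference was taken from the estimated fragments behind it. The 95% counting intervals (exact, by the method of Clopper and Pearson) hold no error other than that of counting, and are narrower than they should be for genes with transcripts of several lengths, because fragments were estimated with a long transcript. By these intervals, 20 of the 37 expressed members lay above 0, 5 lay below 0 and 12 held 0. The interval lay above 0 for all 12 of the members counted as higher, but with the shortest coding transcript in place of the longest, 3 of these intervals held 0 (Aldh1a1, Gstp2 and Gstt1). Expressed members rested on 11 to 21110 estimated fragments in a library, with a median of 404 in KPR-.

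**Figure D3:**
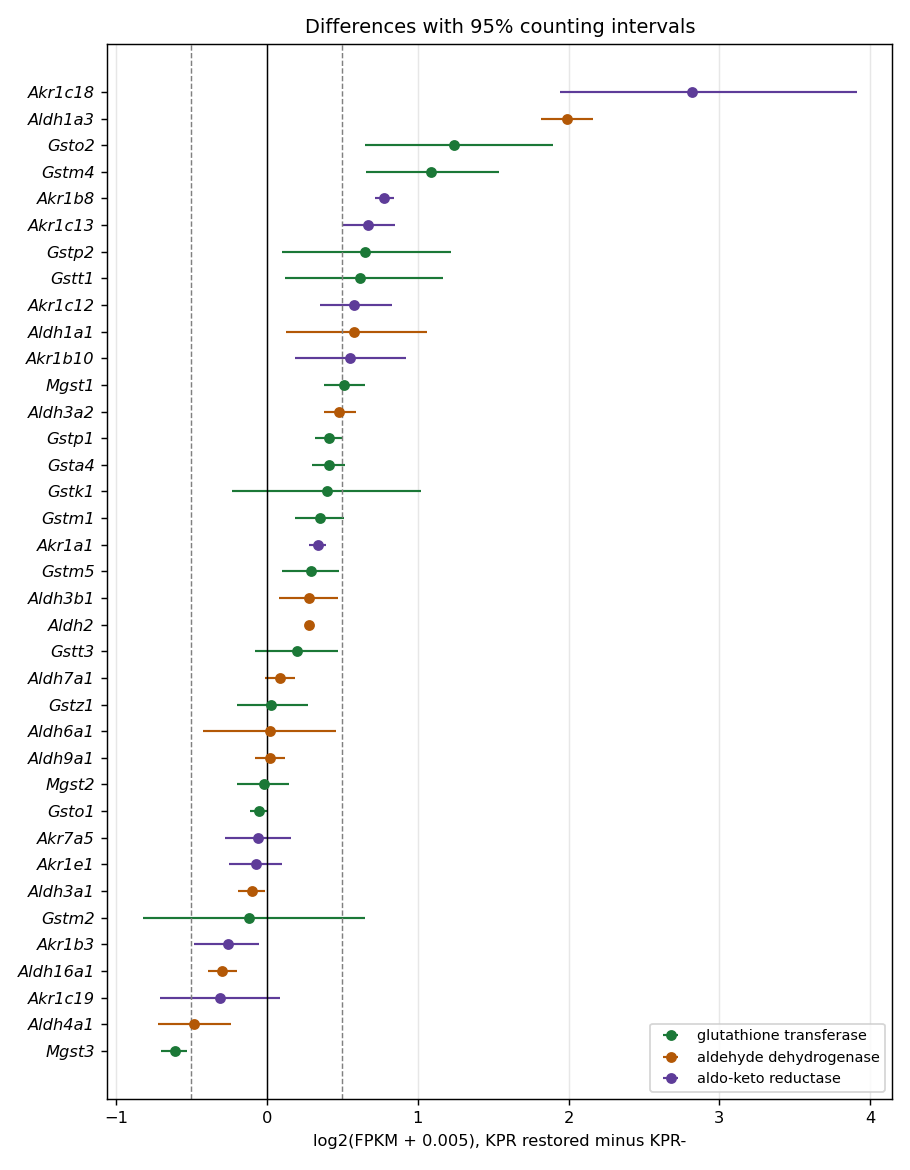
Difference in log2(FPKM + 0.005), KPR_restored minus KPR-, of each expressed member (points, coloured by family) with its 95% counting interval (horizontal bars), ordered by size. Dashed lines mark 0.5 and -0.5, and the widest bars among the members over the upper line belong to Akr1c18, Gsto2, Gstp2 and Gstt1.

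Among the cytosolic glutathione transferases, the abundant alpha, pi and mu genes all lay above 0 and below the threshold of 0.5. Gsta4, which conjugates the lipid peroxidation product 4-hydroxynonenal, had FPKM of 72.4 in KPR- and 96.0 in KPR_restored (log2 difference 0.41, interval 0.30 to 0.52). Gstp1, the main pi-class enzyme, had 131 and 174 (0.41, 0.32 to 0.50). Its neighbour Gstp2 was far lower, with FPKM of 3.52 and 5.52 (0.65, 0.10 to 1.22). The pi genes lie next to each other on chromosome 19 from 4035411 to 4042221 (GRCm38) and are close copies, so their reads may be shared. Of the 100-base windows of the Gstp2 transcript, 54.6% occur unchanged in Gstp1, and 52.8% of those of Gstp1 occur in Gstp2. The value of Gstp2, at about 45 and 73 fragments beside about 1744 and 2386 for Gstp1, is uncertain for this reason.

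Most of the 7 mu-class genes on chromosome 3 (107895854 to 108045179) were weakly expressed or not expressed. Gstm1 had FPKM of 23.6 in KPR- and 30.1 in KPR_restored (log2 difference 0.35), and Gstm5 had 25.8 and 31.5 (0.29). Gstm4, at a lower level in both libraries, showed the largest difference of the class among its expressed genes, with FPKM of 1.97 and 4.20 (1.09, 0.66 to 1.54). Gstm2 had 1.85 and 1.70 (-0.12), and its interval held 0. The mu class thus had 1 higher gene among its 4 expressed genes.

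The remaining cytosolic classes varied. Gsto1 and Gsto2, the omega-class genes with dehydroascorbate reductase activity, lie side by side on chromosome 19 (47854973 to 47886308), and only Gsto2 was higher. Gsto1 had FPKM of 199 in KPR- and 193 in KPR_restored (log2 difference -0.05, -0.11 to 0.01). Gsto2 had 1.31 and 3.10 (1.24, 0.65 to 1.90), from about 32 and 79 fragments. Neither shares a 100-base window with any other gene. Gstt1, a theta-class enzyme, had 2.86 and 4.42 (0.62, 0.12 to 1.17), and its neighbour Gstt3 had 5.74 and 6.57 (0.20, -0.08 to 0.47). Of the Gstt3 windows, 23.9% are shared with the annotated gene Gm20441. Gstk1, the mitochondrial and peroxisomal kappa-class enzyme, had 2.53 and 3.34 (0.40), with an interval that held 0. Gstz1, the maleylacetoacetate isomerase of tyrosine breakdown, had 9.65 and 9.88 (0.03).

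The 3 microsomal glutathione transferases, membrane-bound enzymes unrelated in sequence to the cytosolic ones, went in different directions. Mgst1, which conjugates glutathione and reduces lipid hydroperoxides, had FPKM of 35.1 in KPR- and 50.1 in KPR_restored. Its log2 difference of 0.51 (0.38 to 0.65) lay just over the threshold. Mgst3, a microsomal enzyme with glutathione peroxidase activity on chromosome 1 (167371966 to 167393841), had 149 and 97.2. At -0.61 (-0.70 to -0.53) it was the 1 expressed member that was lower by 0.5 or more, and it rested on about 2861 and 1932 fragments. Mgst2 had 62.8 and 61.8 (-0.02, -0.20 to 0.15). The summed level of the 3 genes was 246 in KPR- and 209 in KPR_restored, the lowest ratio (0.849) among the classes of glutathione transferases.

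The 250 bases before the start of Mgst1 (its first listed start site) and Mgst3 are shown because these are the microsomal genes that were higher and lower. The 250 bases before Gstp1 and Gstp2 are shown because the genes are close copies at very different levels. Each runs 5′ to 3′ on the strand of its gene, from RefSeq on GRCm38.p6, and capitals mark letters that match a motif searched for.
Mgst1, chr6:138140277-138140526, plus strand: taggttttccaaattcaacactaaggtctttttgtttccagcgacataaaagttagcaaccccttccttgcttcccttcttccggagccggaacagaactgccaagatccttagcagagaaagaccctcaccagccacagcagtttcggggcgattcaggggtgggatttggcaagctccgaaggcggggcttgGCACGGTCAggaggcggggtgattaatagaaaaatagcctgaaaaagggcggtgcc
Mgst3, chr1:167393842-167394091, minus strand: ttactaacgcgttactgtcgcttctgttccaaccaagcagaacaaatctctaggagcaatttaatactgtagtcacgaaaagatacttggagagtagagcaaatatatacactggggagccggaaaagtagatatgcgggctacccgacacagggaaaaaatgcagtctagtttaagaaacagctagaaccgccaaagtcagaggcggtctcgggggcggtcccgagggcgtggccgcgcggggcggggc
Gstp1, chr19:4037913-4038162, minus strand: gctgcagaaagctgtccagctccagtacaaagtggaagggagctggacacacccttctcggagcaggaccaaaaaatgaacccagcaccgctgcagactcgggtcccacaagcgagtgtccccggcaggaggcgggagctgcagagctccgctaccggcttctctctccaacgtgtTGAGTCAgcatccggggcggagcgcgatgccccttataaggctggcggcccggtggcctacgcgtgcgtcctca
Gstp2, chr19:4042222-4042471, minus strand: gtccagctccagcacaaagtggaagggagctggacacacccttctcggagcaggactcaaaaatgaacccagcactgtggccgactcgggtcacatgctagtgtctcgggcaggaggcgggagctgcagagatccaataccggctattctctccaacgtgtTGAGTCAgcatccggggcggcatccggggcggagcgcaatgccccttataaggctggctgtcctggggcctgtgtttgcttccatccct
The capitals in Mgst1 are the reverse complement of TGACNNNGC, the core of the antioxidant response element that NRF2 is known to bind, starting 56 bases before the start site. The capitals in Gstp1 and Gstp2 match TGANTCA, the core of the AP-1 site, 74 and 89 bases before the start. In both genes the next letters are gc, so the stretch reads TGAGTCAGC. It differs from TGACNNNGC only by a G in place of the first C. Mgst3 held no searched letters in this window. Aligned over the whole 300-base promoters (250 bases before the start and 50 after it), Gstp1 and Gstp2 were identical in 78.5% of the alignment columns (208 of 265), and Mgst1 and Mgst3 in 48.0%.

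Among the expressed aldehyde dehydrogenases, Aldh1a3 had the largest difference. Aldh1a3, a retinaldehyde dehydrogenase on chromosome 7 (66390892 to 66427477), had FPKM of 5.00 in KPR- and 19.9 in KPR_restored. Its log2 difference was 1.99 (1.82 to 2.16), a ratio of 3.98, and it rested on about 351 and 1441 fragments. Aldh1a1, another retinaldehyde dehydrogenase, had 1.63 and 2.44 (0.58, 0.13 to 1.06), with an interval that held 0 when the shortest coding transcript was used (-0.23 to 1.43). The third, Aldh1a2, was not expressed, with 0.0889 and 0.0216 from about 4 fragments and 1 fragment. The summed FPKM of these retinaldehyde dehydrogenases was 6.72 in KPR- and 22.4 in KPR_restored, and Aldh1a3 made up 74.4% and 89.0% of it. Aldh1a7, which lies next to Aldh1a1 on chromosome 19, was below the expression limit with 0.0987 and 0.696, from about 4 and 29 fragments.

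The other expressed aldehyde dehydrogenases differed by less than 0.5. Aldh2 had a log2 difference of 0.28 (0.25 to 0.31), a narrow interval given by about 16874 and 21110 fragments. Of the ALDH3 enzymes, which act on medium- and long-chain aldehydes, Aldh3a2, the fatty aldehyde dehydrogenase, had FPKM of 18.6 in KPR- and 26.0 in KPR_restored (0.48, 0.38 to 0.59). Its neighbour Aldh3a1, on chromosome 11 from 61208510 to 61267528 with it, had 61.1 and 56.9 (-0.10, -0.19 to -0.01). Aldh3b1 had 10.3 and 12.4 (0.28). The ALDH3 genes that were expressed thus lay on both sides of 0.

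The mitochondrial and cytosolic enzymes of amino acid and amine breakdown were nearly level, apart from Aldh4a1. Aldh4a1, of proline breakdown, had FPKM of 5.03 in KPR- and 3.61 in KPR_restored (log2 difference -0.48, -0.72 to -0.24). Of its windows, 42.6% are shared with the annotated gene Gm21969, so its value is uncertain. Aldh7a1, of lysine breakdown, had 17.4 and 18.5 (0.09), and Aldh9a1, of carnitine synthesis, had 27.7 and 28.2 (0.02). Aldh6a1, of valine breakdown, had 1.25 and 1.27 (0.02). The ALDH4 to ALDH9 genes summed to 52.3 and 52.6, a ratio of 1.01. Aldh16a1 had 26.0 and 21.2 (-0.30, -0.39 to -0.20).

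The AKR1B enzymes, aldose reductase and its relatives, gave most of the difference in the aldo-keto reductase sum, at 161 in KPR- and 261 in KPR_restored (ratio 1.62). Akr1b8 had FPKM of 141 and 241, with a log2 difference of 0.78 (0.72 to 0.84) from about 3510 and 6209 fragments. It was the only member with a mean FPKM of 100 or more that was higher by 0.5 or more. Akr1b10 had 4.15 and 6.10 (0.55, 0.19 to 0.92). Akr1b3, the mouse aldose reductase, had 15.8 and 13.2 (-0.26, -0.48 to -0.05). The 4 genes of this subfamily lie on chromosome 6 from 34303930 to 34423137. Of the Akr1b3 windows, 74.0% occur in other annotated genes (66.7% in Gm38056), so its value is uncertain, whereas Akr1b8 and Akr1b10 share no window with any gene. Akr1a1 had 184 and 232 (0.34, 0.28 to 0.39). Akr7a5, known for reducing aflatoxin aldehyde, had 15.0 and 14.4 (-0.06).

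The AKR1C genes, hydroxysteroid dehydrogenases and related reductases, form a cluster with Akr1e1 on chromosome 13 from 4048991 to 4609164. Of the 9 cluster genes, 5 were expressed, and 3 of them were higher. Akr1c18, a hydroxysteroid dehydrogenase that inactivates progesterone, had the largest log2 difference of the members, 2.82 (1.94 to 3.91). Its FPKM was 0.521 in KPR- and 3.70 in KPR_restored, a ratio of 7.10, and it rested on about 11 and 82 fragments. Because its KPR- level lay under 1, it counts as expressed through its KPR_restored level. Akr1c13 had 19.6 and 31.2 (0.67, 0.50 to 0.85), and Akr1c12 had 10.6 and 15.9 (0.58, 0.35 to 0.83). These genes share 11.5% of their windows with each other and none with another gene. Akr1c19, which lies between them, had 5.26 and 4.23 (-0.31, -0.71 to 0.09). Akr1e1, an anhydrofructose reductase, had 7.96 and 7.57 (-0.07, -0.25 to 0.10). Higher genes and genes whose intervals held 0 thus lay beside each other in this cluster.

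The 250 bases before the start of the 4 expressed Akr1c genes are shown, on the strand of each gene as above. They are shown because Akr1c12, Akr1c13 and Akr1c18 were higher, while the interval of Akr1c19 held 0.
Akr1c12, chr13:4279400-4279649, minus strand: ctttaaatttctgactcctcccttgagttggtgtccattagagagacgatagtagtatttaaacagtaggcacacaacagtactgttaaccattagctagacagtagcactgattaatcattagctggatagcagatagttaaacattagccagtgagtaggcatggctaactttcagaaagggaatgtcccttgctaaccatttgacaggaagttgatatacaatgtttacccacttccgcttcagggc
Akr1c13, chr13:4190937-4191186, plus strand: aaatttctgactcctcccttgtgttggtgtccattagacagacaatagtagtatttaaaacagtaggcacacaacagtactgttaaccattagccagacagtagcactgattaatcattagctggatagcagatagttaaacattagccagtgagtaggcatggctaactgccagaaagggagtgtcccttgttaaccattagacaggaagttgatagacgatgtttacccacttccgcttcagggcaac
Akr1c19, chr13:4233490-4233739, plus strand: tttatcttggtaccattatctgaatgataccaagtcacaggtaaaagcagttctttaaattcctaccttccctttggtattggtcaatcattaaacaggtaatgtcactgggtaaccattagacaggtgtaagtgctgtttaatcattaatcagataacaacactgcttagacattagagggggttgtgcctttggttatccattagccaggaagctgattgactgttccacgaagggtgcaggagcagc
Akr1c18, chr13:4150647-4150896, minus strand: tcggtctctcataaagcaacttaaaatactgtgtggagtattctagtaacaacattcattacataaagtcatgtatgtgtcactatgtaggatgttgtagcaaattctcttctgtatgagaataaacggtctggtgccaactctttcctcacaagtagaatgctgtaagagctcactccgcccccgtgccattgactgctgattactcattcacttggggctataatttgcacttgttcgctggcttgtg
No searched motif lay in these windows. The whole promoters of Akr1c12 and Akr1c13 were identical in 92.5% of the alignment columns (235 of 254). Akr1c19 shared 59.0% with Akr1c12 and 60.3% with Akr1c13, and Akr1c18 shared 50.8% with Akr1c13, a level close to that of Mgst1 and Mgst3, which are not neighbours. The log2 differences of Akr1c12 and Akr1c13 were 0.58 and 0.67, and whether these values are linked to the promoter sequence was not tested. Akr1c19 held 1 match to the antioxidant response element, which begins 8 bases after its start.

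Motif letters were counted on both strands of the RefSeq promoters, which were at hand for 31 of the 37 expressed members, and for 11 of the 12 higher ones. A gene was counted if any of its listed promoters held the letters, before or after the start. The share of all promoters counts each promoter once, so the like comparison for the members is the share of expressed genes. Promoters of Akr1b3, Aldh1a3, Aldh2, Aldh3a1, Aldh7a1 and Gsta4 were not analysed here. TGACNNNGC was found in 4 members (12.9%), Akr1c19, Aldh9a1, Gstm5 and Mgst1, compared with 12.4% of the 32851 promoters and 17.1% of 8594 expressed genes. Among the 11 higher members, 1 held these exact letters (Mgst1). The stretch TGAGTCAGC of Gstp1 and Gstp2, with a G in place of the first C, is not in this count. TGTGGT, the core of the RUNX site, was found in 7 members (22.6%), Aldh3b1, Aldh6a1, Aldh9a1, Gstm1, Gsto1, Gstz1 and Mgst2, compared with 16.8% of all promoters and 14.5% of expressed genes. It was found in 0 of the 11 higher members. Only these exact letters were searched, in 300 bases per promoter, so 0 matches does not show that RUNX sites are absent. The matches of Aldh6a1 and Gstz1 lay only at a start further along the gene, and that of Gstm1 began 27 bases after a start. TGANTCA, a search added after the sequences had been seen, was found in 5 members (16.1%), Aldh1a1, Gstm5, Gstp1, Gstp2 and Mgst2, compared with 7.81% and 6.19%. Of the higher members, Aldh1a1 and Gstp2 held it. No match to one motif overlapped a match to another, and a match is only a run of letters, not a site shown to be bound.

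The 22 members under a mean FPKM of 1 rested on few fragments, at most about 118 in a library. The 3 with the highest means were Aldh5a1, of GABA breakdown, Gsta3 and Gsta1. Aldh5a1 had FPKM of 0.782 in KPR- and 0.971 in KPR_restored (log2 difference 0.31, -0.09 to 0.72). Gsta3 had 0.398 and 1.11 (1.47, 0.42 to 2.59), from about 11 and 31 fragments, and Gsta1 had 0.280 and 0.754 (1.42, -0.34 to 3.52). Of the Gsta1 windows, 81.8% occur in other annotated genes. Akr1c6, Akr1c20, Akr1c21, Akr1cl and Gstt4 were listed at 0 in both libraries, where 3 fragments would have given an FPKM of 0.0864 to 0.183. Akr1d1, Aldh8a1 and Gstm3 were listed at 0 in KPR_restored only, beside about 5, 2 and 1 fragments in KPR-. In all, 9 of the 22 low members differed by 0.5 or more upward and 5 by as much downward, beside 15.4% and 16.4% of the 11952 listed genes under this limit. Among the 9 were the aldehyde dehydrogenases Aldh3b3 (FPKM of 0.0510 and 0.273, from about 4 and 22 fragments), Aldh1b1 (0.0655 and 0.149) and Aldh3b2 (0.281 and 0.569), named after their values were seen. The shares of 15.4% and 16.4% also count genes at 0 in both libraries, which cannot differ. Of all listed genes, 7460 were at 0 in KPR- and 7524 in KPR_restored. How many were at 0 in both is not given here, so these shares are not a like comparison for the low members.

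Short transcripts as a whole were slightly higher in KPR_restored, and most members have short transcripts. The median transcript length was 1358 bases for the expressed members and 3016 bases for all expressed genes. Among the 1819 expressed genes under 1500 bases, the median difference was 0.086, with 16.4% higher and 8.25% lower. The 22 members of this length had a median of 0.405, with 9 higher and 1 lower. Between 1500 and 3000 bases, 14.9% of 3722 genes were higher, and 2 of 7 members were. Over 3000 bases, 8.75% of 5636 genes were higher, and 1 of 8 members was (Aldh1a3). Each gene was also centred on the median of its length range, a calculation added after the data had been seen. Then 10 of 37 members were higher and 1 was lower, compared with 11.6% of genes higher and 997 of 11177 genes lower. What part transcript length has in the members' difference beyond this was not tested.

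Genes that supply glutathione and act with the members were compared next, in lists whose members were chosen with results of these data known. Of the 21 genes of the NRF2 and glutathione list 20 were expressed, with a median difference of 0.221. Of the 20, 5 were higher and 0 were lower, compared with 12.1% and 9.29% of all expressed genes. Slc7a11, the cystine importer that feeds glutathione synthesis, had FPKM of 3.14 in KPR- and 24.9 in KPR_restored (2.98). Hmox1, heme oxygenase, had 15.1 and 56.2 (1.90). The other higher genes were Nqo1, a quinone reductase, at 1.12 and 3.28 (1.54), Srxn1, sulfiredoxin, at 10.3 and 18.3 (0.82), and Nfe2l2, which encodes NRF2, at 63.9 and 109 (0.77). Keap1, the inhibitor of NRF2, had 23.7 and 23.3 (-0.02). The enzymes of glutathione synthesis lay above 0 but under the threshold, with Gclc at 0.42, Gclm at 0.23 and Gss at 0.22. Gsr, glutathione reductase, had 71.8 and 56.8 (-0.34), and Txn1, thioredoxin, had 298 and 265 (-0.17).

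Of the 22 genes of conjugate export and glutathione breakdown 13 were expressed, with a median difference of 0.026. Of the 13, 4 were higher and 1 was lower, compared with 12.1% and 9.29% of all expressed genes. Chac1, which degrades glutathione, had FPKM of 4.26 in KPR- and 63.7 in KPR_restored (3.90). Anpep, aminopeptidase N, had 1.17 and 5.55 (2.25), and Oplah, oxoprolinase, had 0.900 and 3.69 (2.03). As the KPR- level of Oplah lay under 1, Oplah counts as expressed, and so among the higher genes, through its KPR_restored level. Chac2, a relative of Chac1, had 7.18 and 10.4 (0.53). None of the 4 expressed Abcc genes of the list, which encode exporters of glutathione conjugates and other compounds, was among the higher genes. Abcc2, an Abcc gene of the list under the expression limit, had 0.247 and 0.754 (1.59, 1.10 to 2.14). It rested on about 42 and 132 fragments and was named after its values were seen. Abcc5 had 14.4 and 8.34 (-0.79), Abcc3 had 61.5 and 48.8 (-0.33), and Abcc1 had 28.3 and 28.8 (0.03). Ggt1, Ggt5, Ggt6 and Ggt7, the gamma-glutamyltransferases that start the breakdown of exported conjugates, were all under a mean FPKM of 1.

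Around the retinaldehyde dehydrogenases, the retinoid list had 16 of 26 genes expressed, with a median difference of 0.046. Of the 16, 1 was higher and 2 were lower, compared with 12.1% and 9.29% of all expressed genes. Dhrs9, a retinol dehydrogenase, had FPKM of 4.40 in KPR- and 9.38 in KPR_restored (1.09). Stra6, the receptor that takes up retinol, had 18.3 and 6.56 (-1.48), and Cyp26b1, which degrades retinoic acid, had 2.31 and 1.43 (-0.69). Rbp4, the retinol carrier, had 238 and 320.4 (0.43). The retinoic acid receptors were level or low. Rara had 13.3 and 12.9 (-0.04) and Rarg had 35.2 and 38.5 (0.13). Rarb, named after its values had been seen, had 0.258 and 0.0538 from about 16 and 3 fragments. Aldh1a3 thus had a larger upward difference than any expressed gene of this list.

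Other enzymes that act on carbonyls and epoxides had 17 of 22 genes expressed, with a median difference of 0.329. Of the 17, 7 were higher and 0 were lower, compared with 12.1% and 9.29% of all expressed genes. Among the 7 were the carbonyl reductases Cbr4 (FPKM of 5.69 in KPR- and 11.0 in KPR_restored, log2 difference 0.95), Cbr3 (1.43 and 2.33, 0.70) and Cbr1 (13.9 and 22.2, 0.68). Adh7, an alcohol dehydrogenase that also oxidizes retinol, had 3.13 and 6.06 (0.95). Esd at 0.59, Ptgr1 at 0.63 and Dcxr at 0.58 were the others. Ephx1, microsomal epoxide hydrolase, had 8.94 and 6.41 (-0.48), and Glo1, glyoxalase, had 56.0 and 51.8 (-0.11). The 20 reference genes, all expressed, had a median difference of -0.053, with 0 higher and 1 lower.

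**Figure D4:**
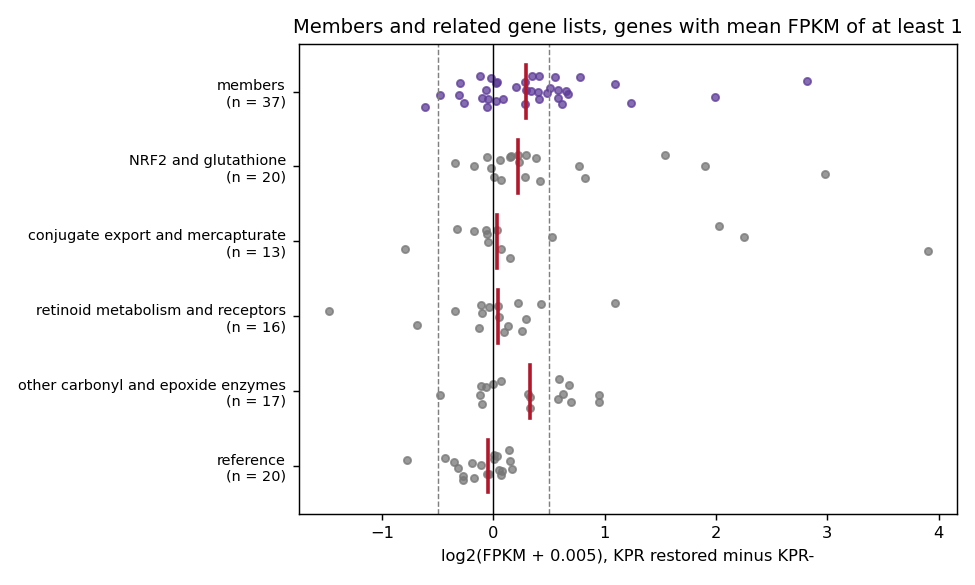
Difference in log2(FPKM + 0.005), KPR_restored minus KPR-, of the expressed members and of the expressed genes of the related lists (points, 1 per gene, with vertical spread only to separate them) and the median of each (red bars). Medians are 0.289 for the members, 0.221 for NRF2 and glutathione, 0.026 for conjugate export and mercapturate, 0.046 for retinoid metabolism and receptors, 0.329 for other carbonyl and epoxide enzymes and -0.053 for the reference genes, and the dashed lines mark 0.5 and -0.5.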

How the data were processed

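Poly(A) RNA of KPR- and KPR_restored cells was sequenced as 1 directional paired-end library each. The authors trimmed the reads for adapters and quality, aligned them by TopHat to mm10 (the submitters' processing notes) and deposited FPKM values from Cufflinks, 1 per gene and library. Versions and the annotation are not given in the sources used here. Read counts were not used here. FPKM depends on the transcript length assumed, and Cufflinks divides reads between near-identical genes by estimate.

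From the deposited FPKM, log2(FPKM + 0.005) was compared between the libraries for genes whose mean FPKM reached 1, with a threshold of 0.5. The pseudocount understates differences of genes at low levels. With 1 library per group, counts and medians of members were set beside those of all genes, with no test. Members and lists were chosen with earlier results of these data known. The genes named were all expressed members, the 3 highest of the others, and in each list the 2 largest rises and the 2 largest falls of log2(FPKM + 1), and any further gene was picked with its values in view. Depth was fitted to the steps of low FPKM values over 568 genes in KPR- and 582 in KPR_restored (mean fragment length 210 bases), of which 78.5% and 80.4% lay within 0.1 of a whole fragment, where 20% would by chance. Fragments were estimated for 22624 genes with GENCODE transcript lengths on GRCm38. Of the symbols, 22148 matched directly and 665 through a synonym, and all 59 members matched. The fit and the intervals were tried on simulated data with 1 transcript length per gene and counting error only. That trial does not cover transcripts of several lengths, reads divided between genes or variation between cultures. Shared reads were judged by 100-base windows, in place of the protein comparison that was planned. Alternatives were other pseudocounts (0.1 and 1), no filter and a filter of 5, a threshold of 1, scaling to the same total or upper quartile, and centring on the median gene. The work was done in Python 3.11.15 with matplotlib 3.10.9, scipy 1.17.1, pandas 2.3.3 and numpy 2.4.6.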

Additional observations from a re-analysis of the deposited data

How the results depend on the processing

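The count of 12 higher members and 1 lower member became 21 and 6 of 59 with no filter on mean FPKM, beside 13.8% and 12.9% of all genes, and 4 and 0 at a threshold of 1. The shares of 13.8% and 12.9% also count genes at 0 in both libraries, which cannot differ. With a mean FPKM of at least 5, 6 of 26 members were higher (23.1%), where 9.95% of all such genes were. Scaling to the same upper quartile gave 11 higher and 2 lower members, beside 10.5% and 10.8% of all genes, and moved the median of all genes to -0.033. With a pseudocount of 1, 9 members were higher (24.3%) and 1 was lower, beside 9.29% and 6.78% of all genes. Akr1b10 (0.46), Aldh1a1 (0.39) and Gstt1 (0.49) then came under the threshold, and Akr1c18 and Aldh1a3 became 1.63 and 1.80. With the upper quartile, Mgst1 became 0.47 and Aldh4a1 -0.52. The other alternatives planned gave 12 higher and 1 lower, and the median of the members ran from 0.247 to 0.288 over the alternatives planned. Over the 5 settings of pseudocount and scaling (185 values), the sign changed for Aldh6a1 (-0.02), Aldh9a1 (-0.02) and Gstz1 (-0.01), all with the upper quartile and all near 0 before. Of the alternatives chosen after seeing the data, leaving out members with more than 10% of their windows shared gave 9 higher and 1 lower of 30 (median 0.283), and centring by transcript length gave a median of 0.249. With the shortest coding transcript in place of the longest, 19 rather than 25 intervals left out 0, and those of Akr1b3, Aldh16a1, Aldh1a1, Aldh3a1, Gstp2 and Gstt1 then held it.

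No paired analysis was possible because each group has 1 library, and no fit without a library was run. Depth limits the members under a mean FPKM of 1 and, among the expressed ones, Akr1c18, Gsto2, Gstm2, Gstk1, Gstp2, Gstt1 and Aldh6a1, each with fewer than 100 estimated fragments per library. Variation between cultures was not measured.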
